A study of Mus musculus with 23 samples.

Results

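WNT ligand genes were described on 23 arrays of mouse epiblast-like cells, cells that stand for the epiblast just before gastrulation. The genes are Wnt3, Wnt3a, Wnt5a, Wnt5b, Wnt8a, Wnt11 and Wnt2b, and they were chosen by name, with every probe set that carries 1 of these symbols. The choice was made with earlier results of these data known. They have 11 probe sets among 45101 on the array, an Affymetrix whole-genome mouse design, and they are 7 of 18194 genes named there. Wnt5a has 4 probe sets, Wnt5b has 2 and each of the others has 1. The cells came from male C57BL/6 embryonic stem cells, of 1 line without Wnt3 (Wnt3-/-, KO below) and 1 line with it (Wnt3+/+, WT below). Both lines carry the BV transgenes, a reporter in which control elements of Blimp1 drive the fluorescent protein mVenus. Stem cells were turned into epiblast-like cells with activin A and bFGF and were then kept as floating aggregates in medium that held LIF in every group. KO aggregates received BMP4 and WNT3A together, WNT3A, BMP4 or no cytokine, and WT aggregates received WNT3A, BMP4 or no cytokine, with BMP4 at 500 ng/ml and WNT3A at 50 ng/ml. Each condition was measured at 12, 24 and 36 h with 1 array per time, and each genotype at 0 h with 1 array, so no array has a replicate and genotype cannot be told apart from the line that carries it.

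WNT proteins are secreted, lipid-bearing signals. They bind Frizzled receptors together with the co-receptors LRP5 and LRP6 to stabilise beta-catenin, or with receptors such as ROR2 to steer cell movement without it. In the mouse embryo Wnt3 is needed to form the primitive streak, where the mesoderm arises, and other members of the family are switched on in the streak and in the tissue it leaves behind. The design lets the ligand genes be compared between cells with and without Wnt3, and between cytokines within each.

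Values are the deposited signals, which are linear intensities with no detection call, and array medians lay between 36.8 and 41.4. A level is compared only within a probe set, since probe sets of different genes are not on a common scale. Differences are on the log2(signal + 16) scale after quantile normalization. Each is a mean over 3 times, given with its standard error from a limma model (n = 3 times per condition). Changes of dim genes come out too small on this scale. Times take the place of replicates, so a p-value sets a difference against how unevenly the gene behaved over the times. A gene was called at a Benjamini-Hochberg adjusted p under 0.05 over 13256 genes, those whose signal passed the array median on at least 3 arrays. All 7 WNT genes passed that filter, but Wnt3 and Wnt5a did so with 4 arrays each, Wnt2b with 8, Wnt11 with 11, Wnt8a with 19, and Wnt3a and Wnt5b with all 23. Wnt3 passed the median only on WT arrays, and Wnt5a only on 36 h arrays. Their tests of KO against WT and of courses over time are therefore given as a description, beside the value with every gene kept, which no such filter touches.

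For 6 KO arrays the label fields go against each other. Arrays titled WNT3A carry an array name with both cytokines, and arrays titled BMP4+WNT3A an array name with WNT3A alone, at all 3 times. Groups follow the titles here and are called by them. Id1 is switched on by BMP signals. At 12, 24 and 36 h its level was 186, 256 and 1323 on KO arrays titled BMP4+WNT3A and 5480.2, 7591 and 9345 on KO arrays titled WNT3A, against 145, 177 and 224 in KO cells with no cytokine. These Id1 values go against the titles. With the labels exchanged, the comparisons of these 2 groups with KO cells given no cytokine trade places and keep their values.

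RNA quality and cell state differed between arrays as well. The ratio of 3' to 5' signal of Gapdh was 4.03 for WT cells with WNT3A at 24 h, 2.68 for KO cells with no cytokine at 24 h and 2.3 for WT cells with no cytokine at 36 h, and it lay between 1.09 and 1.71 on the other 20 arrays. At 0 h the summed signal of 6 epiblast markers was 27347 in KO and 27248 in WT. The summed signal of 8 markers of the primitive streak and nascent mesoderm ranged from 1666 to 4293 on KO arrays titled BMP4+WNT3A, from 1862 to 4955 on KO arrays titled WNT3A, from 355 to 408 in KO cells with BMP4 and from 311 to 401 in KO cells with no cytokine. In WT cells it ranged from 1606 to 6043 with WNT3A, from 2029 to 13194 with BMP4 and from 409 to 2923 with no cytokine. Streak markers were thus high on the same arrays as several WNT genes below, and their part in those results was not tested. In RNA from whole aggregates, fewer cells of a type and less RNA per cell cannot be told apart. Markers of other cell types differed between arrays too. The summed signal of 5 neural ectoderm markers ranged from 1729 to 2482 on KO arrays titled BMP4+WNT3A, from 1016 to 1379 on KO arrays titled WNT3A, from 2203 to 3114 in KO cells with BMP4 and from 2278 to 4233 in KO cells with no cytokine. WT cells had sums from 1900 to 3193 with WNT3A, from 820.3 to 1482 with BMP4 and from 2617 to 3754 with no cytokine. Of the 4 tested neural ectoderm markers, 2 were lower on KO arrays titled BMP4+WNT3A, 3 on KO arrays titled WNT3A and 2 in WT cells with BMP4, each against cells with no cytokine, and 2 were higher in KO than in WT with BMP4. Of all genes, 6.76%, 9.5%, 3.42% and 7.23% were called in either direction in these comparisons, in the same order. The sum of 7 extraembryonic endoderm markers was 808 in WT cells with BMP4 at 36 h, an array with high Wnt3, Wnt3a, Wnt5a and Wnt5b, and between 324 and 498 on the others. Of these markers Gata4 (342.5), Gata6 (155.4) and Sox7 (52.7) were highest on that array. Afp read at most 18.3 and Ttr at most 32 on any array, and Sox17 and Dab2 were highest on other arrays. The sum of 5 trophoblast markers lay between 172 and 335, and 1 of 3 tested was higher in each of KO arrays titled WNT3A, KO cells with BMP4 and WT cells with BMP4 than with no cytokine. The shares of all genes called there in either direction were 9.5%, 0.558% and 3.42%. Of the trophoblast markers Elf5 read at most 19.0, while Plet1 reached 221, Ascl2 168 and Tfap2a 128. The sum of 5 fibroblast markers lay between 293 and 628, where Col1a1 read at most 18.0, Col1a2 reached 300.2 and Thy1 437, the last in WT at 0 h. The part of these markers in the results was not tested.

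Sequences just before the start of the gene are shown for 4 members, those that were called in at least 1 comparison and have an entry in the RefSeq promoter table (GRCm38.p6). Of the 7 genes 5 have 8 starts there, and Wnt8a and Wnt5a have no entry. For Wnt5b and Wnt11 the start shown is the one whose window held a match. The windows hold 250 bases before a start and were searched on both strands for CTTTGA and CTTTGT, letters bound by TCF and LEF proteins, which carry the beta-catenin signal to genes, and for AGGTGT, letters bound by T-box proteins such as BRACHYURY. Among 32851 windows of this length in the table, 13.8% hold CTTTGA, 16.5% hold CTTTGT, 27.6% hold either and 11.8% hold AGGTGT. The windows below run 5′ to 3′ on the strand of the gene, and capitals mark a match, which is written as it stands on that strand (TCAAAG is CTTTGA and ACACCT is AGGTGT on the opposite strand).
Wnt3, chr11:103773925-103774174, plus strand: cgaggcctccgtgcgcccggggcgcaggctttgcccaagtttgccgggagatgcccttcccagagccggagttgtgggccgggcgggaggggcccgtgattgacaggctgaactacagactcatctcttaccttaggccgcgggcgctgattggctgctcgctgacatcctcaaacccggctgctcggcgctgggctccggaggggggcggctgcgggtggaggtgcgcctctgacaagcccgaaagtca
Wnt3a, chr11:59290752-59291001, minus strand: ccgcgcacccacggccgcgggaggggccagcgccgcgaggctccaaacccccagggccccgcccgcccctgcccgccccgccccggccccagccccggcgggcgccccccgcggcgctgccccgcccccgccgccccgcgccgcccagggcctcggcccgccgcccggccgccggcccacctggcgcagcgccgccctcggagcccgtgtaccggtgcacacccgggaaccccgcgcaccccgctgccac
Wnt5b, the third start, chr6:119449387-119449636, minus strand: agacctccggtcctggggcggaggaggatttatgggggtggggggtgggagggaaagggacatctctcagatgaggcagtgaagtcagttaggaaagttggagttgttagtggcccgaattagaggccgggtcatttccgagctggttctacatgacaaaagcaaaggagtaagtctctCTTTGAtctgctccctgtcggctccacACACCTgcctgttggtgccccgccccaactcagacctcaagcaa
Wnt11, the first start, chr7:98834862-98835111, plus strand: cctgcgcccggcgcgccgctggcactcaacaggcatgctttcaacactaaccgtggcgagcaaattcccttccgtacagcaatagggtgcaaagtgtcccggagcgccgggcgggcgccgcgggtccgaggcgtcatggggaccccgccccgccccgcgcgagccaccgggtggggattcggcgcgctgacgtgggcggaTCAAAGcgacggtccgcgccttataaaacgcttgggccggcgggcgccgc

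Of the 8 windows, 2 held CTTTGA or CTTTGT. In the third Wnt5b window CTTTGA stood 71 to 66 bases before the start and ACACCT 44 to 39 bases before it, while the other Wnt5b windows held none of these letters. The first Wnt11 window held TCAAAG 50 to 45 bases before the start, and the Wnt2b window, not shown, held ACACCT 151 to 146 bases before it. No match was found in the Wnt3 and Wnt3a windows. A match describes letters and not a bound site, and which start was in use in these cells was not measured.

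Wnt3, the ligand deleted in the KO line, stayed below the array median in KO cells and passed it on 4 WT arrays. On its probe set (1450763_x_at, a type in which some probes can match other transcripts too) the signal at 12, 24 and 36 h was 15.9, 19.8 and 18.1 on KO arrays titled BMP4+WNT3A and 17.4, 26.2 and 27.9 on KO arrays titled WNT3A. KO cells had 16.3, 17.3 and 13.6 with BMP4 and 16.9, 11.8 and 11.2 with no cytokine. WT cells had 32.7, 56.9 and 25.6 with WNT3A, 19.0, 100.4 and 146 with BMP4, and 11.5, 17.0 and 83.3 with no cytokine. At 0 h it was 16.2 in KO and 10.4 in WT. The high arrays were WT cells with BMP4 at 24 and 36 h, with no cytokine at 36 h and with WNT3A at 24 h, and all KO arrays stayed below the array medians. Labels do not say which stretch of Wnt3 was deleted, so whether these probes lie in it is not known. With BMP4 in both genotypes, the Wnt3 difference in KO relative to WT was -1.45 ± 0.41 (adjusted p = 0.0435). It describes the deleted gene and supports nothing further, and it did not pass with every gene kept (adjusted p = 0.0612) or under 5 other settings (adjusted p between 0.0546 and 0.404), among them the fits that left out 24 h or 36 h. Its course in WT cells with BMP4 rose by 1.07 ± 0.22 log2 units per 12 h (adjusted p = 0.00811, and 0.0158 with every gene kept). The course in WT cells with no cytokine rose by 0.91 ± 0.22 per 12 h (adjusted p = 0.0371), a call lost with every gene kept (adjusted p = 0.0641) and with probe sets fitted singly (adjusted p = 0.0513). Without the 3 arrays of high Gapdh ratio, which include the 36 h array of this course, it was 0.02 (adjusted p = 0.983).

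Wnt8a, a ligand of the posterior streak, ranged from 15.7 in KO cells with BMP4 at 36 h, which is below the array median, to 3373 in WT cells with WNT3A at 24 h, an array with a Gapdh ratio of 4.03. The next highest array, WT cells with WNT3A at 36 h, read 3214. On probe set 1422228_at the signal at 12, 24 and 36 h was 1734, 2740.1 and 3148 on KO arrays titled BMP4+WNT3A and 1053, 1361 and 1351 on KO arrays titled WNT3A. KO cells had 49.9, 25.6 and 15.7 with BMP4 and 71.5, 58.9 and 44.6 with no cytokine. In WT cells it was 1872, 3373 and 3214 with WNT3A, 949, 1399 and 1060.1 with BMP4, and 129, 787 and 2647 with no cytokine. At 0 h it was 37.5 in KO and 30.9 in WT. Every KO array titled with WNT3A and every WT array with a cytokine lay above all KO arrays with BMP4 or no cytokine, as did 1.13% of all genes tested. WT cells with no cytokine started low at 12 h and reached the level of the cytokine groups at 36 h.

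Against KO cells with no cytokine, Wnt8a rose by 5.02 ± 0.60 on arrays titled BMP4+WNT3A (adjusted p = 0.000261) and by 4.05 ± 0.60 on arrays titled WNT3A (adjusted p = 0.000518). The signal ratio to KO cells with no cytokine was 24.3, 46.5 and 70.5 at 12, 24 and 36 h on arrays titled BMP4+WNT3A, and 14.7, 23.1 and 30.3 on arrays titled WNT3A. BMP4 alone in KO cells gave a difference of -0.77 ± 0.60 (adjusted p = 0.733). With BMP4 in both genotypes, Wnt8a was lower in KO by -4.72 ± 0.60 (adjusted p = 0.000256). Those 3 calls were lost without the 24 h arrays (adjusted p between 0.0906 and 0.118), with differences of 4.93, 3.98 and -4.50.

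In WT cells the Wnt8a difference from cells with no cytokine was smaller at each later time, and with BMP4 it was below 0 at 36 h. With WNT3A it was 3.62, 2.06 and 0.29 at 12, 24 and 36 h, and with BMP4 it was 2.79, 0.84 and -1.37. The means over the times, 1.99 ± 0.60 with WNT3A (adjusted p = 0.155) and 0.75 ± 0.60 with BMP4 (adjusted p = 0.572), did not pass. The difference with WNT3A passed without the 36 h arrays, at 2.84 (adjusted p = 0.0151), and without the 3 arrays of high Gapdh ratio, at 3.01 (adjusted p = 0.0436). The course of Wnt8a in WT cells with no cytokine rose by 2.03 ± 0.13 per 12 h (adjusted p = 8.59e-06), while in KO cells with no cytokine it was -0.29 ± 0.13 (adjusted p = 0.222). Between the genotypes the course with no cytokine was lower in KO by -2.32 ± 0.18 per 12 h (adjusted p = 0.000183). As a mean over the times, Wnt8a with no cytokine was -3.20 ± 0.60 in KO relative to WT (adjusted p = 0.0545), with differences of -0.75, -3.46 and -5.39 at 12, 24 and 36 h, and without the 12 h arrays it passed at -4.42 (adjusted p = 0.00207).

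Axin2 and Sp5, targets of beta-catenin signalling, were read as a check of that signal on the same arrays. Axin2 at 12, 24 and 36 h was 407, 455 and 885 on KO arrays titled BMP4+WNT3A and 380.0, 326 and 560.3 on KO arrays titled WNT3A. KO cells had 43.1, 31.3 and 40.8 with BMP4 and 43.4, 88.0 and 55.7 with no cytokine. In WT cells Axin2 was 523, 1370.0 and 949 with WNT3A, 380.0, 526 and 904 with BMP4, and 61.0, 274 and 996 with no cytokine. Sp5 was between 24.8 and 27.3 in KO cells with no cytokine and 27.5, 181 and 3541 in WT cells with no cytokine. The arrays with high Wnt8a were those with high Axin2, and over 23 arrays that share conditions and times the Pearson correlation of the 2 genes was 0.961, given as a description.

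**Figure D1:**
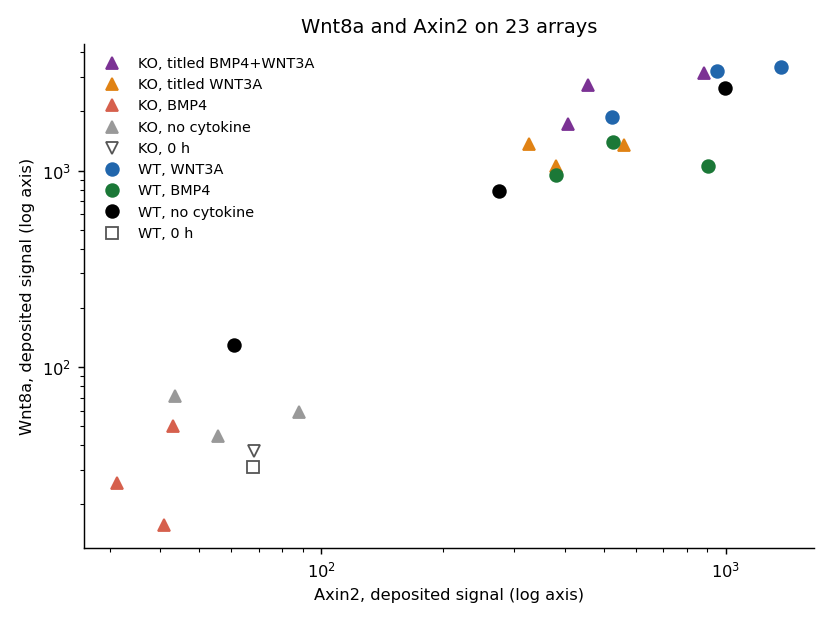
Deposited signal of Wnt8a (vertical, log axis) against Axin2 (horizontal, log axis), 1 point per array, 23 arrays, with triangles for KO and circles for WT cells and open symbols for 0 h. KO cells with BMP4 or no cytokine, both 0 h arrays and the 12 h array of WT cells with no cytokine sit at the lower left, with Wnt8a at or below 129, and the other arrays sit at the upper right, with Wnt8a at 787 or above.

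Wnt3a, the ligand that maintains mesoderm formation in the tail of the embryo, was high at 36 h on 3 of the arrays. Its signal on probe set 1422093_at at 12, 24 and 36 h was 155, 179.8 and 1136 on KO arrays titled BMP4+WNT3A and 136, 162 and 156 on KO arrays titled WNT3A. KO cells had 153, 136 and 135 with BMP4 and 158, 146 and 139 with no cytokine. In WT cells the signal was 132, 271 and 1663 with WNT3A, 163, 151 and 714 with BMP4, and 158, 155 and 185 with no cytokine. At 0 h it was 163 in KO and 142 in WT. The arrays other than these 3 and the 24 h array of WT cells with WNT3A stayed between 132 and 185. No difference in the mean over the times passed for Wnt3a; with WNT3A in WT cells it was 1.17 ± 0.58 (adjusted p = 0.391), and at 36 h alone it was 3.05. The course in WT cells with BMP4 rose by 0.88 ± 0.23 per 12 h (adjusted p = 0.0283), which rests on the 36 h array and did not pass with every gene kept (adjusted p = 0.055). It was 0.02 ± 0.23 in WT cells with no cytokine (adjusted p = 0.983). KO arrays titled WNT3A, with high Id1, stayed low for Wnt3a at 36 h, and KO arrays titled BMP4+WNT3A did not; the mean difference between them was 0.97 ± 0.58 (adjusted p = 0.816).

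Wnt5b, a ligand that mostly acts without beta-catenin, was the member called in the most comparisons. Its probe set 1439373_x_at is, like that of Wnt3, of a type in which some probes can match other transcripts too. On it the signal at 12, 24 and 36 h was 639, 904 and 3191 on KO arrays titled BMP4+WNT3A. KO arrays titled WNT3A had 556, 596 and 1089.9. KO cells had 67.6, 62.2 and 80.4 with BMP4 and 75.6, 76.6 and 62.7 with no cytokine. WT cells had 653, 1379.6 and 3848 with WNT3A, 498, 891 and 3666 with BMP4, and 135, 294 and 553 with no cytokine. At 0 h it was 106 in KO and 162 in WT. KO arrays titled BMP4+WNT3A lay above all 3 of KO cells with no cytokine, as for 10.1% of all genes tested, and KO arrays titled WNT3A did so too (10.6% of all genes). WT cells with WNT3A lay above all 3 arrays of WT cells with no cytokine (4.64% of all genes), while WT cells with BMP4 overlapped with them at 12 h. KO cells stayed below their 0 h level of 106 at all 3 times, both with BMP4 and with no cytokine.

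Wnt5b rose in KO cells by 3.76 ± 0.43 on arrays titled BMP4+WNT3A (adjusted p = 0.000236) and by 3.00 ± 0.43 on arrays titled WNT3A (adjusted p = 0.000432), and BMP4 alone gave -0.09 ± 0.43 (adjusted p = 0.974). In WT cells it rose by 2.34 ± 0.43 with WNT3A (adjusted p = 0.0281) and by 2.05 ± 0.43 with BMP4 (adjusted p = 0.0144). With BMP4 in both genotypes it was lower in KO by -3.89 ± 0.43 (adjusted p = 9.39e-05), and with no cytokine the difference was -1.75 ± 0.43 (adjusted p = 0.128). The response to BMP4 itself differed between KO and WT by -2.14 ± 0.61, with an unadjusted p of 0.00284 and an adjusted p of 0.474, so a difference of the responses was not shown. Its course rose by 1.31 ± 0.14 per 12 h in WT cells with BMP4 (adjusted p = 0.000304) and by 0.86 ± 0.14 with no cytokine (adjusted p = 0.00527), and it was -0.13 ± 0.14 in KO cells with no cytokine (adjusted p = 0.648). Without the 24 h arrays the 5 calls between groups were lost (adjusted p between 0.057 and 0.792), and without the 3 arrays of high Gapdh ratio those in WT cells were lost too (adjusted p = 0.0793 with BMP4 and 0.211 with WNT3A), as was the course with no cytokine (adjusted p = 0.0622). The call for WNT3A in WT cells was further lost without the 12 h arrays (adjusted p = 0.0823) and when the 6 KO arrays with label conflicts were left out (adjusted p = 0.0999).

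The second Wnt5b probe set, 1422602_a_at, gave like values. It read 335, 505 and 1951 at 12, 24 and 36 h on KO arrays titled BMP4+WNT3A and 288, 286 and 572 on KO arrays titled WNT3A. KO cells had 33.1, 28.4 and 39.4 with BMP4 and 38.1, 39.1 and 18.9 with no cytokine. In WT cells it read 349.7, 765 and 2628 with WNT3A, 217, 478 and 2452 with BMP4, and 55.7, 143 and 338 with no cytokine. When each probe set was fitted by itself, its difference with BMP4 in KO relative to WT was -3.80 ± 0.53 (adjusted p = 0.000546), and with BMP4 in WT cells it was 2.11 ± 0.53 (adjusted p = 0.0418), while with WNT3A in WT cells it was 2.51 ± 0.53 (adjusted p = 0.0507).

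Wnt5a, the closest relative of Wnt5b and needed for the outgrowth of the body axis, was bright on 4 arrays, all of them at 36 h. On probe set 1436791_at the signal at 12, 24 and 36 h was 11.9, 23.3 and 215 on KO arrays titled BMP4+WNT3A and 18.9, 29.7 and 207 on KO arrays titled WNT3A. KO cells had 13.5, 10.3 and 18.0 with BMP4 and 14.7, 11.8 and 19.4 with no cytokine. WT cells had 19.4, 23.8 and 402 with WNT3A, 17.9, 18.8 and 572 with BMP4, and 18.0, 17.0 and 29.7 with no cytokine. At 0 h it was 17.3 in KO and 9.99 in WT. Cells given no cytokine stayed below the array medians in both genotypes, and the KO arrays that were high were those titled with WNT3A. No fold is given against these dim values. In WT cells the mean differences over the times, 1.13 ± 0.64 with WNT3A (adjusted p = 0.453) and 1.2 ± 0.64 with BMP4 (adjusted p = 0.364), did not pass. The course in WT cells with BMP4 had a slope of 1.99 ± 0.30 per 12 h (adjusted p = 0.00165, and 0.00491 with every gene kept). This slope is a description, since it rests on the 36 h array and the probe set passed the filter on 36 h arrays alone.

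The other 3 Wnt5a probe sets did not pass the filter, and they differed from the first. Probe set 1437673_at read 79.3 in WT cells with BMP4 at 36 h and at most 14.6 on every other array, and 1448818_at was highest on that array too, at 47.8, with 34.1 on the 36 h KO array titled BMP4+WNT3A and 33.4 in WT cells with WNT3A at 36 h. Probe set 1456976_at lay between 4.56 and 28.6 with no such peak. The high signal on the 36 h KO array titled WNT3A was thus read by 1436791_at and by none of the other 3.

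**Figure D2:**
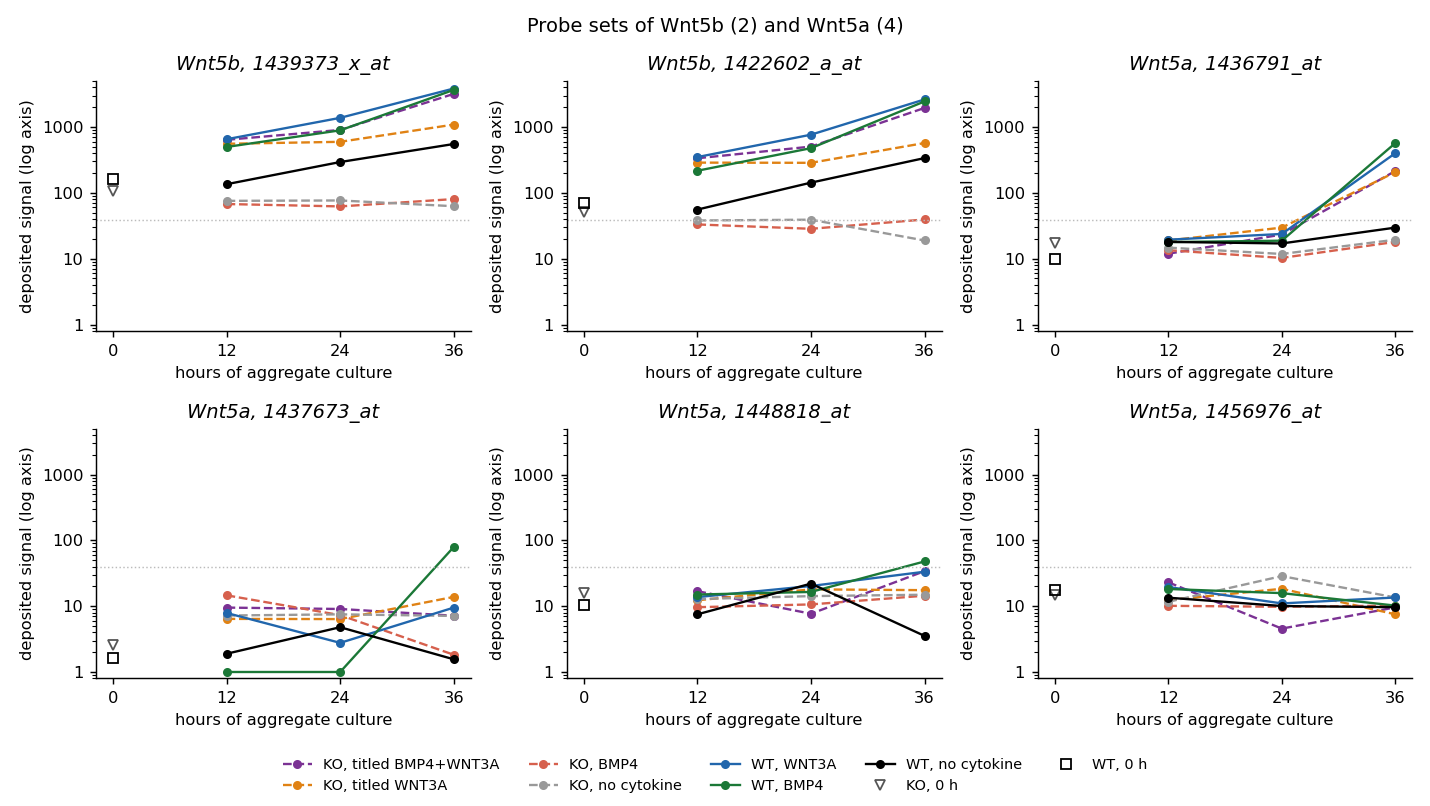
Deposited signal (vertical, log axis) of the 2 Wnt5b and 4 Wnt5a probe sets against hours of aggregate culture, 1 point per array, with dashed lines for KO and solid lines for WT conditions, open symbols for 0 h and a dotted line at the median of the array medians. Both Wnt5b probe sets order the conditions alike at 36 h, with WT and WNT3A on top at 3848 and 2628, while of the Wnt5a probe sets only 1436791_at reads above 79.3 on any array.

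Wnt11, a ligand of cell movements during gastrulation in fish and frogs, moved within a narrow, dim range. Probe set 1450772_at read 52.7, 53.4 and 41.1 at 12, 24 and 36 h on KO arrays titled BMP4+WNT3A and 32.4, 58.5 and 47.5 on KO arrays titled WNT3A. KO cells had 15.9, 24.9 and 22.5 with BMP4 and 18.9, 31.1 and 39.7 with no cytokine. In WT cells it read 62.2, 62.7 and 30.1 with WNT3A, 51.3, 53.4 and 78.2 with BMP4, and 25.3, 21 and 80.4 with no cytokine. At 0 h it read 26.4 in KO and 16.9 in WT. KO cells with BMP4 were below the array medians and below all 3 arrays of WT cells with BMP4, as were 5.23% of all genes tested, and Wnt11 was lower there by -1.05 ± 0.30 (adjusted p = 0.0427). This call was lost under 7 other settings (adjusted p between 0.052 and 0.248), among them the fits with every gene kept and without 12 h or 24 h. Without the 36 h arrays, Wnt11 passed for WNT3A in WT cells at 1.02 (adjusted p = 0.0258), against a difference of 0.32 ± 0.30 (adjusted p = 0.679) with all arrays, and for the KO arrays titled BMP4+WNT3A at 0.76 (adjusted p = 0.0486), against 0.50 ± 0.30 (adjusted p = 0.368). The 36 h array of WT cells with no cytokine, with a Gapdh ratio of 2.3, held the highest Wnt11 signal of all.

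Wnt2b, which acts through beta-catenin in the eye and limb of the chick, lay between 26.0 and 44.3 on all 23 arrays. Its lowest array was the 36 h KO array titled BMP4+WNT3A and its highest the 24 h KO array with BMP4. No comparison called it; the difference was -0.25 ± 0.11 with WNT3A in WT cells (adjusted p = 0.346) and 0.15 ± 0.11 for KO relative to WT with BMP4 (adjusted p = 0.505).

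**Figure D3:**
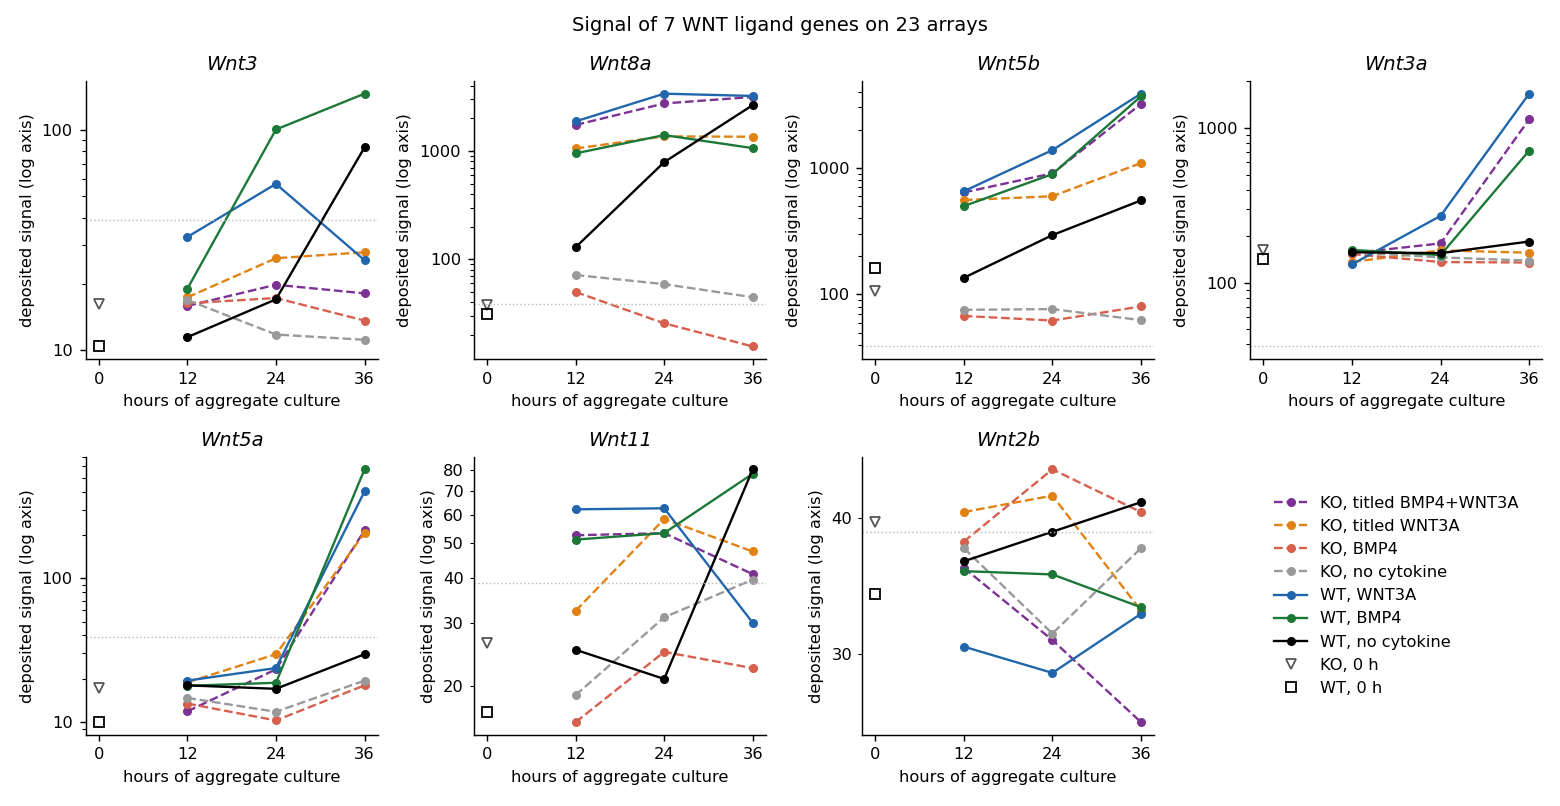
Deposited signal of the 7 WNT ligand genes (vertical, log axis, 1 probe set per gene) against hours of aggregate culture, 1 point per array, with dashed lines for KO and solid lines for WT conditions, open symbols for 0 h and a dotted line at the median of the array medians. Wnt8a and Wnt5b are high from 12 h where a cytokine raised them. Wnt3a and Wnt5a are high on some of the 36 h arrays and low on the others. Wnt3 passes 27.9 on WT arrays alone, and Wnt2b stays between 26.0 and 44.3.

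Ordered by the mean log2 value of the 7 conditions, the genes differed in which condition was on top. WT cells with WNT3A were highest for Wnt8a, Wnt5b and Wnt3a, and WT cells with BMP4 for Wnt3, Wnt5a and Wnt11, while KO cells with BMP4 were lowest for Wnt8a, Wnt5b, Wnt3a, Wnt5a and Wnt11. Neighbours in the order mostly lay within the spread over the times: of the 6 neighbouring pairs, 3 differed by more than the larger SD for Wnt8a, 2 each for Wnt3 and Wnt5b, 1 each for Wnt5a and Wnt2b, and 0 for Wnt3a and Wnt11. For Wnt8a these pairs set KO titled BMP4+WNT3A above KO titled WNT3A, KO with no cytokine below WT with no cytokine, and KO with BMP4 below KO with no cytokine. In the limma model none of these 3 passed (adjusted p = 0.828, 0.0545 and 0.733, in the same order). For Wnt5b the pairs set KO titled WNT3A above WT with no cytokine, which was not tested, and KO with no cytokine below WT with no cytokine, which did not pass (adjusted p = 0.128).

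In cells without Wnt3, arrays titled BMP4+WNT3A lay above all arrays with no cytokine for 3 of 7 members, Wnt8a, Wnt5b and Wnt11. The same held for 10.1% of all genes tested. Arrays titled WNT3A lay above them for 3 of 7 members too, Wnt8a, Wnt5b and Wnt3 (10.6% of all genes). Wnt3, the deleted gene, was dim on all of these arrays, and nothing is read from it. On KO arrays titled BMP4+WNT3A 2 of 7 members rose, Wnt8a and Wnt5b, against 2.96% of all genes called higher and 6.76% in either direction. The median difference was 0.96 over the members and -0.02 over all genes. On KO arrays titled WNT3A the same 2 members rose (3.98% of all genes called higher and 9.5% in either direction), with medians of 0.44 and -0.01. BMP4 alone in KO cells called 0 of 7 members (0.558% of all genes), with medians of -0.09 and -0.01; at an unadjusted p under 0.05 limma called 1413 genes there. In that comparison the smallest unadjusted p of a member was 0.217, for Wnt8a. The 3 comparisons share the arrays of KO cells with no cytokine. Of the 8 streak markers, 3 rose on arrays titled BMP4+WNT3A, 2 on arrays titled WNT3A and 0 with BMP4 in KO cells.

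In WT cells each cytokine called 1 of 7 members, Wnt5b in each case. For WNT3A the share of all genes was 0.256% called higher and 0.483% in either direction, with medians of 1.14 over the members and -0.01 over all genes. For BMP4 it was 1.44% called higher and 3.42% in either direction, with medians of 0.75 and -0.01. BMP4 set directly against WNT3A in WT cells called 0 of 7 members (0.747% of all genes; 1910 genes at an unadjusted p under 0.05), and the widest member difference was that of Wnt8a, -1.24 ± 0.60 (adjusted p = 0.362). In KO cells the arrays titled BMP4+WNT3A set against those titled WNT3A also called 0 of 7 (0.339% of all genes; 966 genes at an unadjusted p under 0.05), with Wnt8a at 0.96 ± 0.60 (adjusted p = 0.828).

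With BMP4 in both genotypes, Wnt8a, Wnt5b and Wnt11 were lower in KO than in WT, and so was Wnt3, which makes 4 of 7. Of all genes 2.95% were called lower and 7.23% in either direction. Wnt3 is the deleted gene and passed the filter on WT arrays alone, so nothing is read from its call or from the count of 4. The median difference was -1.45 over the members, which is the value of Wnt3 itself, and -0.01 over all genes. With every gene kept 2 of 7 were lower, Wnt8a and Wnt5b, against 1.7% of all genes. In the same comparison 5 of 8 streak markers were lower and 3 of 6 epiblast and 2 of 4 neural ectoderm markers higher in KO. With no cytokine 0 of 7 members were called (0.0981% of all genes; 1626 genes at an unadjusted p under 0.05), with Wnt8a next to the threshold. The difference between the genotypes of the response to BMP4 called 0 of 7 members and 0% of all genes, with a smallest adjusted p of 0.0516 over all genes and 781 genes at an unadjusted p under 0.05. A difference in the response was thus not shown for any member, although BMP4 called Wnt5b in WT cells and not in KO cells.

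Several members climbed over 12 to 36 h in WT cells. In WT cells with no cytokine 3 of 7 members were called higher, Wnt8a, Wnt3 and Wnt5b (2.67% of all genes called higher and 4.17% in either direction). Nothing is read from this count of 3, since Wnt3 passed the filter on 4 WT arrays, among them the 36 h array of this course. With every gene kept Wnt8a (adjusted p = 5.18e-05) and Wnt5b (adjusted p = 0.0135) were still called, and Wnt3 was not (adjusted p = 0.0641). The count was 1 without the 3 arrays of high Gapdh ratio. In WT cells with BMP4 4 of 7 were called higher, Wnt5a, Wnt5b, Wnt3 and Wnt3a (7.08% of all genes called higher and 14.9% in either direction). Nothing is read from this count, since Wnt5a passed the filter on 36 h arrays alone and Wnt3 on 4 WT arrays, 2 of them in this course. With every gene kept 3 of 7 were called higher, Wnt5a, Wnt5b and Wnt3 (4.17% of all genes). In this course 5 of 8 streak and 2 of 4 extraembryonic endoderm markers rose and 5 of 6 epiblast markers fell, while the slope of Wnt8a was -0.05 ± 0.13 per 12 h (adjusted p = 0.84). KO cells with no cytokine called 0 of 7 members (2.98% of all genes; 2718 genes at an unadjusted p under 0.05). The slope with no cytokine differed between KO and WT for 1 member, Wnt8a (0.166% of all genes called lower and 0.189% in either direction), and was -0.99 ± 0.20 for Wnt5b (adjusted p = 0.0809) and -1.05 ± 0.31 for Wnt3 (adjusted p = 0.281).

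The KO groups of uncertain label were also set against the WT groups of like Id1 level, in comparisons added after the data were seen. KO arrays titled BMP4+WNT3A against WT cells with WNT3A called 0 of 7 members (0.0151% of all genes; 340 genes at an unadjusted p under 0.05), with Wnt8a at -0.17 ± 0.60 and Wnt3 at -0.65 ± 0.41. KO arrays titled WNT3A against WT cells with BMP4 called 0 of 7 (0.00754% of all genes; 760 genes at an unadjusted p under 0.05), with Wnt3 at -1.12 ± 0.41 and Wnt5b at -0.80 ± 0.43 (adjusted p = 0.816 each). KO arrays titled WNT3A against KO cells with BMP4 called 2 of 7, with Wnt8a higher by 4.82 ± 0.60 (adjusted p = 0.000498) and Wnt5b by 3.09 ± 0.43 (adjusted p = 0.000921), against 1.82% of all genes called higher and 3.98% in either direction. These 2 calls were lost without the 24 h arrays (adjusted p = 0.167 for Wnt8a and 0.181 for Wnt5b).

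**Figure D4:**
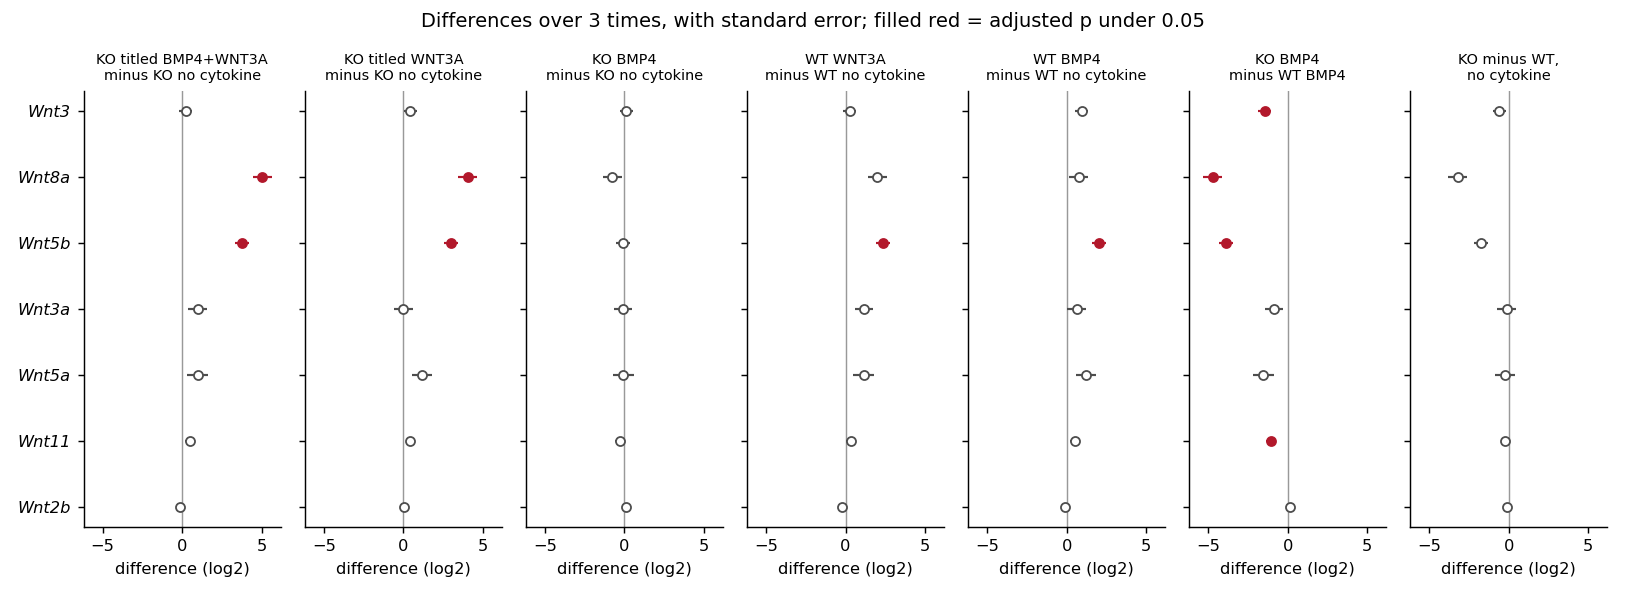
Difference of each WNT ligand gene (horizontal, log2 scale, mean over 12, 24 and 36 h) in 7 comparisons, with bars for the standard error of the limma model and red filled points for an adjusted p under 0.05. Wnt8a and Wnt5b lie at 3.00 or above in both KO comparisons that carry WNT3A by title and at -3.89 or below in KO relative to WT with BMP4, and Wnt2b lies near 0 throughout.

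The rest of the pathway was read from lists of 66 genes, of which 47 passed the filter. Of these, 6 rose and 3 fell on KO arrays titled BMP4+WNT3A, 6 rose and 5 fell on KO arrays titled WNT3A, and 1 fell in KO cells with BMP4. In WT cells 1 rose and 1 fell with WNT3A, and 3 rose and 5 fell with BMP4. With BMP4 in both genotypes 6 were higher and 9 lower in KO, and with no cytokine 0 were called in either direction. Called pathway genes were thus 19.1% of those tested on KO arrays titled BMP4+WNT3A, against 6.76% of all genes, 23.4% against 9.5% on KO arrays titled WNT3A and 2.13% against 0.558% in KO cells with BMP4. They were 4.26% against 0.483% with WNT3A and 17% against 3.42% with BMP4 in WT cells, and 31.9% against 7.23% for KO relative to WT with BMP4. The lists were chosen with earlier results of these data known, so nothing about the pathway as a whole is read from these shares. Calls of pathway genes were not compared under other settings of the fit. The medians of the lists below can be set beside that of all genes, -0.02 on KO arrays titled BMP4+WNT3A and -0.01 in KO relative to WT with BMP4.

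Among the 3 genes that process WNT ligands, Porcn and Wls were called in several comparisons and Notum, which strips the lipid from WNT proteins, in none between groups. Their median difference was 0.79 on KO arrays titled BMP4+WNT3A and -1.15 in KO relative to WT with BMP4. Porcn, the enzyme that attaches the lipid, rose by 2.71 ± 0.34 on KO arrays titled BMP4+WNT3A (adjusted p = 0.000297) and by 2.94 ± 0.34 on KO arrays titled WNT3A (adjusted p = 7.81e-05). Its signal at 12, 24 and 36 h on KO arrays titled WNT3A was 553, 564 and 781, against 57.7, 70.5 and 66.3 in KO cells with no cytokine. In WT cells Porcn rose by 1.34 ± 0.34 with BMP4 (adjusted p = 0.0398), and it was lower in KO than in WT with BMP4 by -2.20 ± 0.34 (adjusted p = 0.00102). Wls, which carries WNT proteins to the cell surface, rose with BMP4 in WT cells by 1.86 ± 0.15 (adjusted p = 5.14e-06), with WNT3A in WT cells by 0.87 ± 0.15 (adjusted p = 0.0235). On KO arrays it rose by 0.79 ± 0.15 with the title BMP4+WNT3A (adjusted p = 0.0039) and by 1.69 ± 0.15 with the title WNT3A (adjusted p = 8.66e-06). It also climbed without any cytokine, by 0.94 ± 0.11 per 12 h in KO cells (adjusted p = 0.00128) and by 1.2 ± 0.11 in WT cells (adjusted p = 0.000139). Its signal at 12, 24 and 36 h with no cytokine was 232, 605 and 1003 in KO and 170.1, 530.1 and 1113 in WT.

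Receptors moved in opposite directions. Of 14 tested receptor genes, 1 rose and 2 fell on KO arrays titled BMP4+WNT3A, 1 rose and 4 fell on KO arrays titled WNT3A, and 1 rose and 4 fell with BMP4 in WT cells, where Fzd10 was the gene that rose. The median of the receptors was -0.15 on KO arrays titled BMP4+WNT3A and 0.38 in KO relative to WT with BMP4. Ror2, a receptor for WNT5A, rose by 2.01 ± 0.38 on KO arrays titled BMP4+WNT3A (adjusted p = 0.00444) and by 1.51 ± 0.38 on KO arrays titled WNT3A (adjusted p = 0.0193), and its signal at 12, 24 and 36 h was 352, 171 and 179 in KO cells with BMP4, against 1105, 1314 and 1399 in WT cells with BMP4. Fzd7, a Frizzled receptor of pluripotent cells, fell in all comparisons with a cytokine other than BMP4 in KO cells. Its difference was -1.74 ± 0.22 on KO arrays titled BMP4+WNT3A (adjusted p = 0.000302) and -1.33 ± 0.22 on KO arrays titled WNT3A (adjusted p = 0.00112). In WT cells it was -1.12 ± 0.22 with WNT3A (adjusted p = 0.0355) and -0.92 ± 0.22 with BMP4 (adjusted p = 0.0297). Fzd8, a related receptor, was higher in KO than in WT with BMP4 by 1.67 ± 0.25 (adjusted p = 0.000808). Ror1, the relative of Ror2, was the pathway gene that fell with BMP4 in KO cells, by 1.46 ± 0.29 (adjusted p = 0.0303), and it fell in WT cells with BMP4 by 1.28 ± 0.29 (adjusted p = 0.0202).

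Among modulators outside the cell, Rspo3 and Dkk1 had the widest differences between the genotypes with BMP4. Rspo3, which raises the number of Frizzled receptors at the surface, read 72.5, 104 and 2179.8 at 12, 24 and 36 h on KO arrays titled BMP4+WNT3A and 83.9, 131 and 1144 on KO arrays titled WNT3A, against 8.94, 16.3 and 16.9 in KO cells with no cytokine. It rose there by 3.22 ± 0.82 (adjusted p = 0.0259) and 3.08 ± 0.82 (adjusted p = 0.0249), and was lower in KO than in WT with BMP4 by -3.39 ± 0.82 (adjusted p = 0.0186). Dkk1, an inhibitor that blocks LRP5 and LRP6, was lower in KO than in WT with BMP4 by -2.81 ± 0.68 (adjusted p = 0.0197), and its course in WT cells with BMP4 rose by 2.23 ± 0.29 per 12 h (adjusted p = 0.000716). Of the 15 modulators tested, 2 were higher and 3 lower in KO with BMP4 in both genotypes, with a median of 0.03, and on KO arrays titled BMP4+WNT3A their median was 0.01.

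Of 11 intracellular transducers, 1 rose and 1 fell on KO arrays titled BMP4+WNT3A, with a median of -0.01. Lef1, a partner of beta-catenin on DNA, rose by 1.09 ± 0.31 on KO arrays titled BMP4+WNT3A (adjusted p = 0.0431), and Tcf7l1, a member of the same family that mostly represses, fell by 0.90 ± 0.23 (adjusted p = 0.0242). With BMP4 in both genotypes Lef1 was lower in KO by -1.23 ± 0.31 (adjusted p = 0.0233) and Tcf7l1 was higher by 0.91 ± 0.23 (adjusted p = 0.0214). Among the other WNT ligand genes 4 of 12 were tested, Wnt4, Wnt6, Wnt7b and Wnt9a, and Wnt4 was called between groups. It rose by 0.70 ± 0.13 on KO arrays titled WNT3A (adjusted p = 0.00285) and was lower in KO than in WT with BMP4 by -0.45 ± 0.13 (adjusted p = 0.0443).

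**Figure D5:**
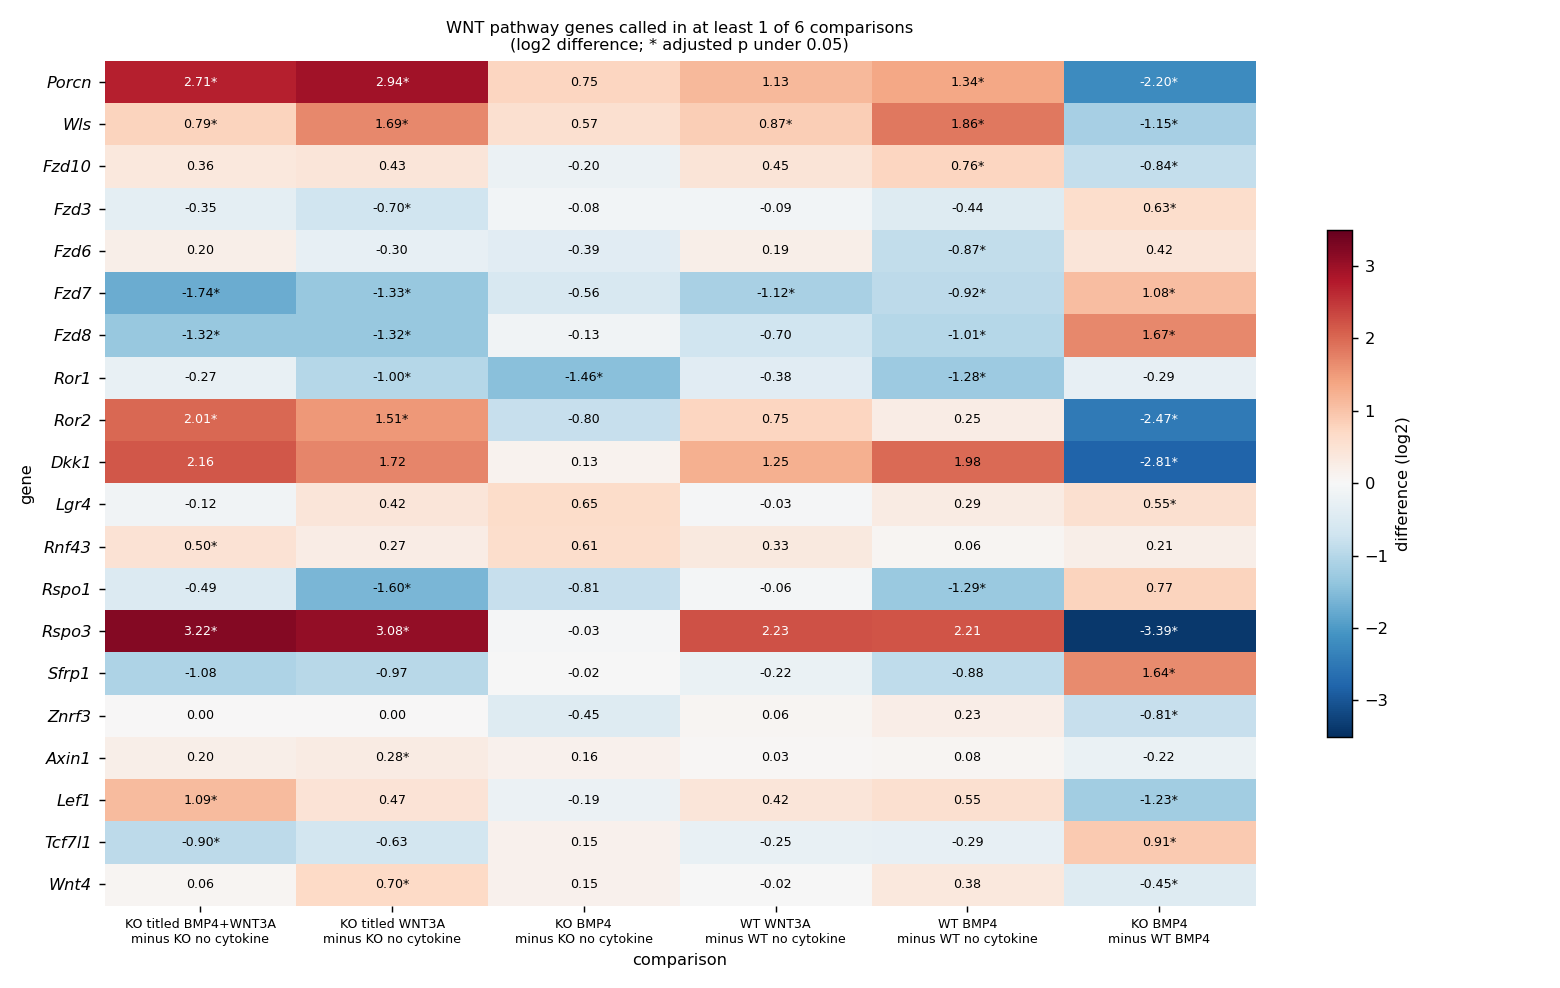
Log2 differences of the 20 WNT pathway genes called in at least 1 of 6 comparisons, with genes down the page, comparisons across it, colour for the difference and a star for an adjusted p under 0.05. Porcn and Rspo3 are above 2 in both KO comparisons that carry WNT3A by title and below -2 in KO relative to WT with BMP4, and Fzd7 and Fzd8 run the other way.

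Patterns most like each member were looked up over the 23 arrays, which share conditions, times and library, by Pearson correlation of normalized log2 values. For Wnt8a the closest 5 genes were Tnfrsf19 at 0.976, Sp5 at 0.962, Nt5e at 0.961, Axin2 at 0.961 and Ror2 at 0.959. For Wnt5b they were Klhl32 at 0.957, Plekhg3 at 0.955, Tpd52l1 at 0.951, Exoc6b at 0.948 and Rtl8c at 0.943. The list for Wnt3a began with Tbx6, a gene of presomitic mesoderm, at 0.967, and went on with Hoxb3, Lhx1os, Limch1 and Plxna2, but their rank correlations were between 0.394 and 0.547, against 0.948 or more by Pearson. Likewise Wnt5a had Cited1 at 0.978, then Ifih1, Chst7, Usp18 and Igf2. Wnt3 had Mixl1, a homeobox gene of the streak, at 0.808, then Erc1, Cyb561a3, Slpi and Man1c1, Wnt11 had Wwtr1 at 0.869, then Rbbp7, Efemp1, Elf2 and Erp44, and Wnt2b had Dctd at 0.805, then Tcfl5, Ncl, Gclc and Rrp15. Among the members the closest pair was Wnt5b and Wnt8a at 0.891, followed by Wnt3a and Wnt5a at 0.823, while Wnt3 and Wnt3a correlated at 0.27.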

How the data were processed

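Affymetrix whole-genome mouse arrays measured biotin-labelled RNA made from amplified cDNA, per the labels' protocols. The authors deposited linear intensity values, with a floor at 1 that holds 2.93% of values and a grid of 0.01 in log2. The method behind them was not given in the sources used here. The number of arrays limits the precision.

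Of 45101 probe sets, 34958 name 1 gene by the platform annotation, 932 several and 9211 none, and only the first kind was used. log2(value + 16) was quantile normalized. For a gene with several probe sets the brightest on average was taken, and 13256 of 18194 genes were tested. The fit in limma 3.58.1 under R 4.3.3 (lmFit and eBayes with trend) had 7 conditions plus an additive time block over 21 arrays (12 residual degrees of freedom), with Benjamini-Hochberg adjustment over all genes tested. Slopes came from a linear course per condition with a shared departure at 24 h (6 residual degrees of freedom). The 0 h arrays are in no test. Named genes are all 7 members, and from each pathway list up to 4 genes called with the largest differences. The steps were tested on simulated data. The members and lists were chosen with earlier results of these data known.

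The fit was repeated with unnormalized values, with centring on medians, with an offset of 1 or 64, with all genes kept, with probe sets fitted singly or averaged per gene, with no time term, without each time, and with the 6 KO arrays whose labels conflict exchanged or left out. Fits without the 3 arrays of highest Gapdh ratio were run too, for slopes only after the data were seen. Motif letters were searched in RefSeq promoter windows (GRCm38.p6). Figures were drawn with matplotlib 3.10.9.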

Additional observations from a re-analysis of the deposited data

Results flagged for a closer look

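The course of Wnt8a without added cytokine differed between the genotypes in a test of the difference itself, and it was the only member for which such a test passed. The slope over 12 to 36 h was -2.32 log2 units per 12 h in KO relative to WT (SE 0.18, adjusted p = 0.000183), with 71.5, 58.9 and 44.6 in KO cells, against 129, 787 and 2647 in WT cells at 12, 24 and 36 h. Sp5, a target of beta-catenin signalling, differed the same way, by -3.21 per 12 h (SE 0.37, adjusted p = 0.00355). Both courses rest on 3 arrays per genotype, of which the 24 h array of KO cells and the 36 h array of WT cells had raised Gapdh 3' to 5' ratios of 2.68 and 2.3. Without the arrays of raised ratio the Wnt8a difference was -2.50 (adjusted p = 0.0278). The slopes then rested on 12 and 36 h alone in KO cells and on 12 and 24 h alone in WT cells, so over unlike spans. No such value is given for Sp5, which read 3541 on the 36 h array of WT cells that was left out.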

How the results depend on the processing

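No called difference of the WNT ligand genes described changed sign under any alternative that was run. Signs of differences called under neither setting were not compared. Over all results and alternatives for the WNT ligand genes described, 1417 values kept their side of the threshold, 34 lost it and 5 gained it. Pathway genes are not among these values, so how far their calls depend on the processing was not tested. The count of WNT genes called for BMP4 in WT cells was 1 with all arrays and 0 in the fit with no time block and when the 3 arrays with the top Gapdh ratios were dropped. For WNT3A in WT cells it was 1 and became 0 with no time block and when the 6 KO arrays with label conflicts were dropped. For KO against WT with BMP4 it was 4 and became 2 with no filter, with probe sets averaged per gene, with no time block and when those 6 were dropped. The count of slopes in WT cells with no cytokine was 3 and became 1 when the 3 arrays with the top Gapdh ratios were dropped. The cause was not tested, and beyond the fit with no filter the share of all genes called under these settings is not given.

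Leaving out each time in turn gave counts from 0 to 1 for BMP4 in WT cells, 0 to 3 for WNT3A in WT cells, 0 to 2 for titled WNT3A in KO cells, 0 to 3 for titled BMP4+WNT3A in KO cells, 0 to 1 for KO against WT with no cytokine, 0 to 3 for KO against WT with BMP4 and 0 to 2 for titled WNT3A in KO against BMP4 in KO cells. The other comparisons stayed at 0 to 0. The share of all genes called in fits that left out a time is not given here, so nothing is read from these changes of count. Without the 24 h arrays Wnt5b lost its call with BMP4 in WT cells, while its difference was 2.28, against 2.05 with all arrays. No paired analysis was possible because the titles give no replicate numbers, so the time block takes that place. By rank correlation 0 of the 5 genes most like Wnt3a and Wnt5a were shared with the Pearson list, 1 for Wnt8a and Wnt2b, 2 for Wnt3, and 3 for Wnt5b and Wnt11. Without detection calls, dim signal of Wnt3, Wnt5a, Wnt11 and Wnt2b could not be told apart from background.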

Other observations

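Of the 12 WNT ligand genes other than the 7 described 4 were tested. In WT cells with BMP4 the course of 1 of these, Wnt6, was called, against 7.08% of all genes called higher and 14.9% in either direction. With no cytokine 0 were called in either genotype (4.17% of all genes in WT and 2.98% in KO, in either direction). Nothing is read from these counts. Wnt6, expressed in surface ectoderm and in extraembryonic tissue, read 151 at 36 h on the KO array titled BMP4+WNT3A, 144 in WT cells with WNT3A and 179 in WT cells with BMP4, against 40.8 in KO and 52.0 in WT cells with no cytokine. Its course in WT cells with BMP4 rose by 0.64 ± 0.13 per 12 h (adjusted p = 0.00919). Wnt2 and Wnt9b did not pass the filter, and both were highest in WT cells with BMP4 at 36 h, at 98.4 for Wnt2 and 49.9 for Wnt9b, which are named here after their values were seen. Wnt6 and Wnt9a, both tested, were highest on the same array, Wnt9a at 77.7. Wnt4, Wnt10a and Wnt10b were highest on other 36 h arrays. The rest were highest earlier, Wnt1 and Wnt7b at 0 h, Wnt8b at 12 h, and Wnt7a and Wnt16 at 24 h. Frzb, a secreted WNT antagonist, read 4.79, 9.71 and 19.2 at 12, 24 and 36 h in KO cells with no cytokine, against 11.9, 43.7 and 662 in WT cells with no cytokine, and its course in those WT cells rose by 2.26 ± 0.28 per 12 h (adjusted p = 0.000875). The 36 h array of WT cells with no cytokine, on which this value rests, had a Gapdh ratio of 2.3. In KO cells with no cytokine Frzb stayed below the array medians. Between the genotypes with no cytokine, 0 of the 47 pathway genes tested were called in the mean over the times (0.0981% of all genes). For the slope it was 0 of 47 too (0.189% of all genes), so a difference between the genotypes was not shown for Frzb. Sfrp2, a related antagonist, rose in KO cells with no cytokine by 0.87 ± 0.13 per 12 h (adjusted p = 0.00557) and fell in WT cells with BMP4 by 0.82 ± 0.13 per 12 h (adjusted p = 0.00262).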
